A study of Mus musculus with 10 samples.

Results

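Acetylcholine receptor genes were followed through ribosome-bound and reference RNA of the mouse striatum. The 10 genes were chosen by symbol: the 5 muscarinic receptors (Chrm1 to Chrm5) and the nicotinic subunits Chrna4, Chrna6, Chrna7, Chrnb2 and Chrnb3, of 32531 gene symbols counted. All libraries were made from whole striatum. The adult mice were Drd2-EGFP/Rpl10a (Drd2-TRAP, line CP101), which carry an EGFP-tagged ribosomal protein under the dopamine D2 receptor gene, and all had intravenous self-administration in short-access sessions. There were 3 immunopurified (IP) libraries of ribosome-bound RNA after saline (numbers 1, 2 and 4), 5 after cocaine (numbers 1 to 5), 1 input library of total RNA after saline and 1 library of the unbound RNA left after cocaine IP. Nothing in the labels says that the libraries of a group came from separate mice, so the p-values measure the spread between these libraries, which may be technical. In the striatum the D2 receptor gene is used by indirect-pathway medium spiny neurons (MSNs) and also by cholinergic interneurons, so that the tag need not mark 1 cell type.

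Acetylcholine reaches striatal neurons mainly from local cholinergic interneurons. Muscarinic receptors are G protein-coupled: those encoded by Chrm1, Chrm3 and Chrm5 act through Gq and phospholipase C, and those encoded by Chrm2 and Chrm4 through Gi/o, which lowers cAMP. In the striatum Chrm1 is used by both classes of MSN, Chrm4 more by the direct pathway, and Chrm2 by cholinergic interneurons, where it is an autoreceptor. Nicotinic receptors are ion channels made of subunits. Chrna4 and Chrnb2 form the most common brain type, Chrna7 forms channels on its own, and Chrna6 and Chrnb3 are typical of midbrain dopamine neurons, whose axons but not cell bodies lie in the striatum.

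Levels are given in CPM, a gene's read count scaled to all gene reads of its library. Gene reads came to 22975667 to 31631137 per IP library, 18408782 for input and 20882691 for unbound RNA. The IP libraries held the RNA of the labelled cells: all 5 indirect-pathway MSN markers examined (Drd2, Adora2a, Penk, Gpr6 and Sp9) were over 2-fold higher than in input in every saline IP library, and likewise against unbound RNA after cocaine. The summed level of 5 direct-pathway markers was 85.2 to 100.1 CPM in saline IP, 71.0 to 137.9 CPM in cocaine IP, 792 CPM in input and 605 CPM in unbound RNA. The summed level of 6 cholinergic interneuron markers was 18.8 to 35.3 CPM in saline IP, 19.8 to 49.0 CPM in cocaine IP, 66.8 CPM in input and 45.3 CPM in unbound RNA. Of those 6, the marker Gbx2 was at 0 in every library. Libraries of a group differed by more than sampling noise in every pair.

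The upstream sequences of 2 members are shown because Chrm4 was the receptor gene lowest in IP relative to its references, while Chrnb2 was near its input level, and because their windows lie outside the genes' annotated transcripts. Both are the 250 bases before the RefSeq start on GRCm38.p6, 5′ to 3′ on the gene's strand, at chr2:91921939-91922188 (plus strand) for Chrm4 and chr3:89764633-89764882 (minus strand) for Chrnb2. Capitals mark matches to the GC box GGGCGG or to CAGCACC, a part of the site of the repressor NRSF, which reads GGTGCTG on the other strand.
Chrm4: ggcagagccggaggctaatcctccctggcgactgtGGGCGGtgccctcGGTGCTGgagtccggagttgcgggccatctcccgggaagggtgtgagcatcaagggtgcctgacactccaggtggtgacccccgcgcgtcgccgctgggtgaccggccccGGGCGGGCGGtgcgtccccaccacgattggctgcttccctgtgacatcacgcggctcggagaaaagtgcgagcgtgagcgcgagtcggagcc
Chrnb2: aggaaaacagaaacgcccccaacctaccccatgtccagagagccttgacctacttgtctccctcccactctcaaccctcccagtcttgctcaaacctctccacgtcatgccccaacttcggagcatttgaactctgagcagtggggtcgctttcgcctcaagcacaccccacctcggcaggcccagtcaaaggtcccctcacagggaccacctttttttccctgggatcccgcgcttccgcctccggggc
The Chrm4 window held 3 GC boxes, of which 2 overlap, and 1 match to the NRSF part, while the Chrnb2 window held neither. Neither window held the full cAMP response element TGACGTCA. Of 32851 windows of this length before RefSeq starts, 32.7% held a GC box, 5.73% the NRSF part and 1.55% the response element on either strand. The Chrm4 window had 26 CpG dinucleotides and 70% G or C, and the Chrnb2 window 10 and 59.6%, against a median of 6 CpG over all windows. These matches describe letters only.

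Among the 10 genes, Chrm1 was the most abundant in IP RNA, Chrna4 was next, and Chrna6 had no read in any library. Per kilobase of annotated exon, the saline IP level of Chrm1 was 15.7 ± 3.69 CPM (SD, n = 3), that of Chrna4 was 5.44 ± 0.76 CPM and that of Chrnb2 was 2.37 ± 0.528 CPM. The ranges over the 3 libraries did not overlap between Chrm1 and Chrna4 or between Chrna4 and Chrnb2. Chrm4 followed at 1.73 ± 0.53 CPM per kilobase, Chrna7 at 1.63 ± 0.451 and Chrm3 at 1.44 ± 0.229. Each neighbouring pair from Chrnb2 to Chrm3 overlapped in this order. Chrm5 (0.156 ± 0.0171 CPM per kilobase) and Chrm2 (0.151 ± 0.0499 CPM per kilobase) overlapped each other and lay below all of these. The gene models of Chrm4 and Chrm5 used for length hold the coding sequence only, so that their values per kilobase are upper limits. In input Chrm1 was at 10.4 CPM per kilobase and Chrm4 at up to 14.8, and in unbound RNA they were at 6.61 and up to 9.15, so that the order of these 2 cannot be settled there.

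**Figure D1:**
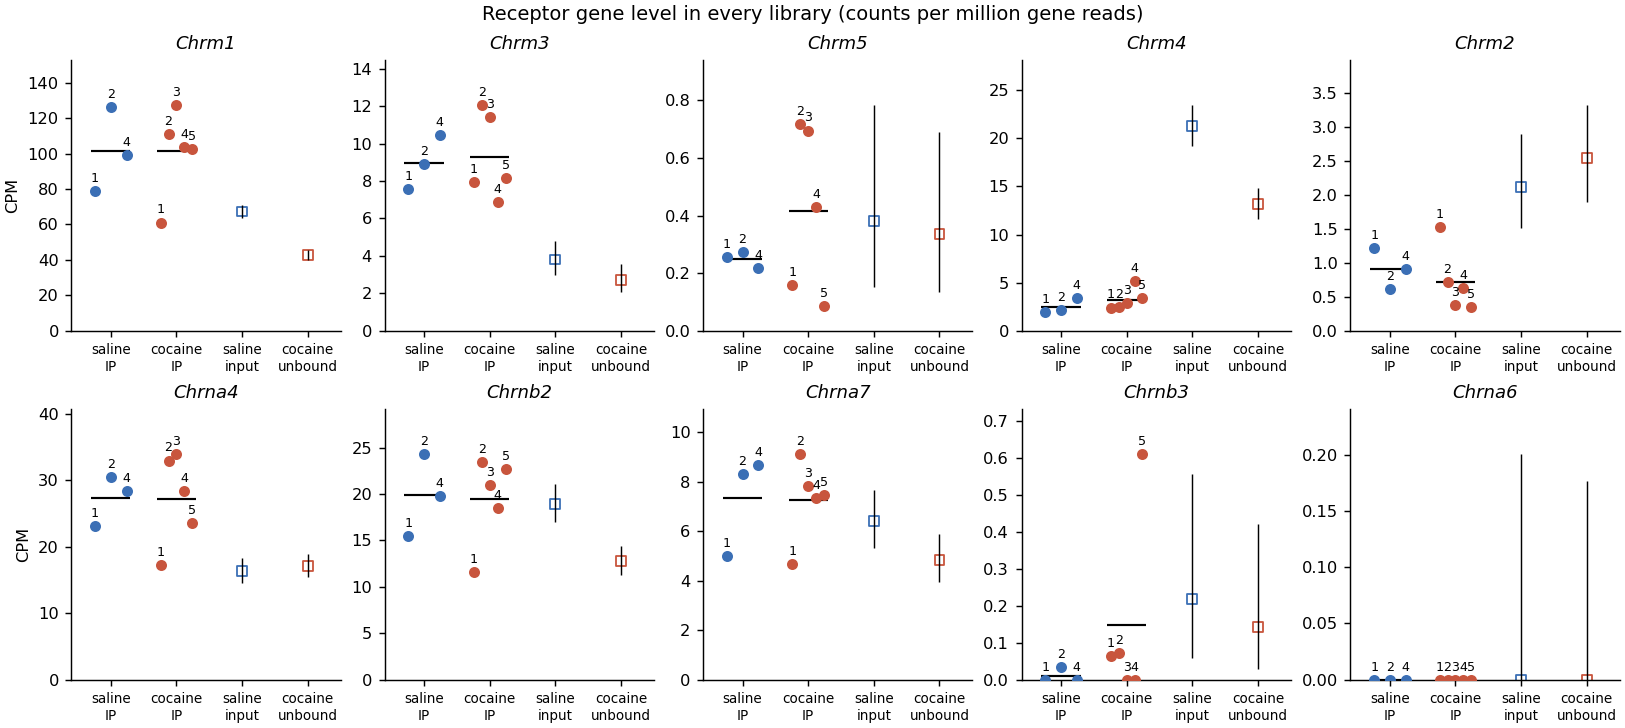
CPM of each receptor gene (y axis, linear, own scale per panel) in the 3 saline IP and 5 cocaine IP libraries (filled points with library numbers, bar at the group mean) and in the single input and unbound libraries (open squares, line for the exact 95% Poisson interval of counting error). Chrm4 sits at 1.95 to 5.12 CPM in all IP libraries, below 21.2 CPM in input and 13.2 CPM in unbound RNA, while Chrm3 sits above both references in every IP library.

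Of the Gq-coupled receptors, Chrm1 (chr19:8663789-8683587, plus strand, GRCm38) was at 78.8, 126.5 and 99.2 CPM in saline IP 1, 2 and 4, against 67.2 CPM in input (95% Poisson interval 63.6 to 71.1). In cocaine IP 1 to 5 it was at 61.1, 110.9, 127.3, 103.7 and 102.8 CPM, against 42.9 CPM in unbound RNA (40.1 to 45.8). All 8 IP libraries thus lay above their reference, and number 1 was the lowest of each treatment. The log2 ratio to the reference, on the scale of CPM scaled by the trimmed mean of M values (TMM) plus 1, was 0.79 ± 0.36 (SD, n = 3) for saline IP to input and 1.37 ± 0.42 (n = 5) for cocaine IP to unbound. The median of all genes on this scale was 0.13 against input and 0.17 against unbound RNA. An exon of Chrm1 overlaps the small noncoding gene Gm22820 on the other strand. The strand setting of the counting is not given in the sources used here, so how reads of this overlap were counted is not known.

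Chrm3 (chr13:9875486-10360847, minus strand) had the highest mean log2 ratio of the receptor genes to either reference when 1 CPM was added to each value. When 5 CPM was added it was at 0.95 against unbound RNA, below Chrm1 at 1.29. It was at 7.59, 8.89 and 10.4 CPM in saline IP 1, 2 and 4 and at 3.80 CPM in input (2.96 to 4.80). In cocaine IP 1 to 5 it was at 7.95, 12.05, 11.4, 6.87 and 8.18 CPM, and at 2.73 CPM in unbound RNA (2.07 to 3.54). No IP library overlapped the counting interval of its reference, and number 1 was lowest after saline but number 4 after cocaine. With 1 CPM added, the log2 ratio was 1.23 ± 0.24 to input and 1.59 ± 0.34 to unbound RNA, the latter a fold of 2.999 on that scale. With 0.1 CPM added the ratios were 1.43 and 1.89.

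Chrm5 (chr2:112479171-112480769, minus strand) was barely detected. It had 8, 8 and 6 reads in saline IP 1, 2 and 4, 5, 20, 22, 11 and 2 reads in cocaine IP 1 to 5, and 7 reads in each reference. Cocaine IP 2 and 3 held the most and cocaine IP 5 the fewest, and the groups overlapped. The means were 0.249 ± 0.0273 CPM in saline IP and 0.418 ± 0.293 CPM in cocaine IP, within the counting intervals of the 0.380 CPM in input (0.153 to 0.784) and the 0.335 CPM in unbound RNA (0.135 to 0.691). The RefSeq span of Chrm5 overlaps Aven and Gm22676 on the other strand, and how reads there were counted is not known.

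Of the Gi/o-coupled receptors, Chrm4 (chr2:91927249-91928688, plus strand) was lower in IP RNA than in either reference. It was at 1.95, 2.15 and 3.36 CPM in saline IP 1, 2 and 4 against 21.2 CPM in input (19.2 to 23.5). In cocaine IP 1 to 5 it was at 2.41, 2.44, 2.88, 5.12 and 3.35 CPM against 13.2 CPM in unbound RNA (11.7 to 14.8). All 8 IP libraries were below both references, and cocaine IP 4 was the highest of them. With 1 CPM added to each value, the log2 ratio was -2.49 ± 0.32 (SD, n = 3) to input, 5.61-fold lower. To unbound RNA it was -1.60 ± 0.35 (n = 5), 3.03-fold lower. The added 1 CPM shrinks the ratios of a gene this low. With 0.1 CPM added they were -2.85 to input and -1.85 to unbound RNA. Since these are bulk samples, fewer cells that use a gene and less of its RNA per cell cannot be told apart. The RefSeq span of Chrm4 overlaps the protein-coding gene Mdk on the other strand. Which gene models were counted is not known, so how reads there were counted is not known either.

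A related contrast can be read within a library, where no scaling between libraries enters. The share of Chrm4 among Chrm4 and Chrm1 reads depends on both genes, and Chrm1 was itself higher in IP RNA. Of the reads of Chrm4 and Chrm1 together, Chrm4 took 2.42%, 1.67% and 3.28% in saline IP 1, 2 and 4, and 3.79%, 2.15%, 2.21%, 4.70% and 3.16% in cocaine IP 1 to 5. It took 24% in input (391 of 1629 reads, exact 95% interval 21.95 to 26.15) and 23.5% in unbound RNA (275 of 1171 reads, 21.1 to 26.02). The 2 references agreed within counting error, and every IP library was far below them. For Chrm3 the share of Chrm3 and Chrm1 reads was closer: 6.56% to 9.53% in saline IP, 6.21% to 11.5% in cocaine IP, 5.35% in input (4.2 to 6.71) and 5.98% in unbound RNA. Saline IP 2 fell within the interval of the input, and cocaine IP 4 and 5 within that of the unbound library (4.56 to 7.68).

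The markers of direct-pathway MSNs were lower in IP RNA too. Chrm4 in saline IP 1, 2 and 4 was at 9.20%, 10.1% and 15.8% of its input level, and the summed direct-pathway markers were at 12.6%, 10.8% and 11.1%. Chrm4 in cocaine IP 1 to 5 was at 18.3%, 18.5%, 21.9%, 38.8% and 25.5% of its unbound level, and the summed markers were at 16.2%, 11.8%, 17.4%, 16.2% and 22.8%. Drd1, the dopamine D1 receptor gene of the direct pathway, was at 7.11% to 9.60% of input and 8.94% to 16.4% of unbound RNA. Against unbound RNA, Chrm4 kept a larger percentage than Drd1 and than the summed markers in all 5 cocaine libraries, most of all in cocaine IP 4. Against input, it was above the sum in saline IP 4 alone. Each treatment has its own kind of reference, so treatment and reference cannot be told apart here. The markers differed among themselves. Tac1 fell less than Chrm4, with mean log2 ratios of -1.94 to input and -1.34 to unbound RNA against -2.49 and -1.60. Drd1, Pdyn, Ebf1 and Isl1 fell more than Chrm4 in both comparisons. The part of direct-pathway RNA in the Chrm4 level was not tested.

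Chrm2 (chr6:36388084-36528414, plus strand) was low in IP RNA, at 1.22, 0.613 and 0.913 CPM in saline IP 1, 2 and 4 and 1.52, 0.717, 0.379, 0.6247 and 0.348 CPM in cocaine IP 1 to 5. It was at 2.12 CPM in input (1.51 to 2.90) and 2.54 CPM in unbound RNA (1.90 to 3.32). Every IP library was below its reference's level, although cocaine IP 1 with 48 reads came nearest, and number 1 was the highest of each treatment. The log2 ratio was -0.57 ± 0.22 to input and -0.95 ± 0.36 to unbound RNA. The summed cholinergic interneuron markers were at 52.9%, 28.1% and 36.2% of input in saline IP 1, 2 and 4, in the same order as Chrm2 at 57.4%, 28.9% and 43.1%. After cocaine they were at 108.1%, 43.8%, 62.5%, 53.3% and 51.2% of unbound RNA, above Chrm2 at 59.9%, 28.3%, 15.0%, 24.6% and 13.7%. The part of interneuron RNA in the Chrm2 level was not tested. Exons of Chrm2 overlap the noncoding gene 9330158H04Rik on the other strand. Without the strand setting of the counting, how reads of this overlap were counted is not known either.

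**Figure D2:**
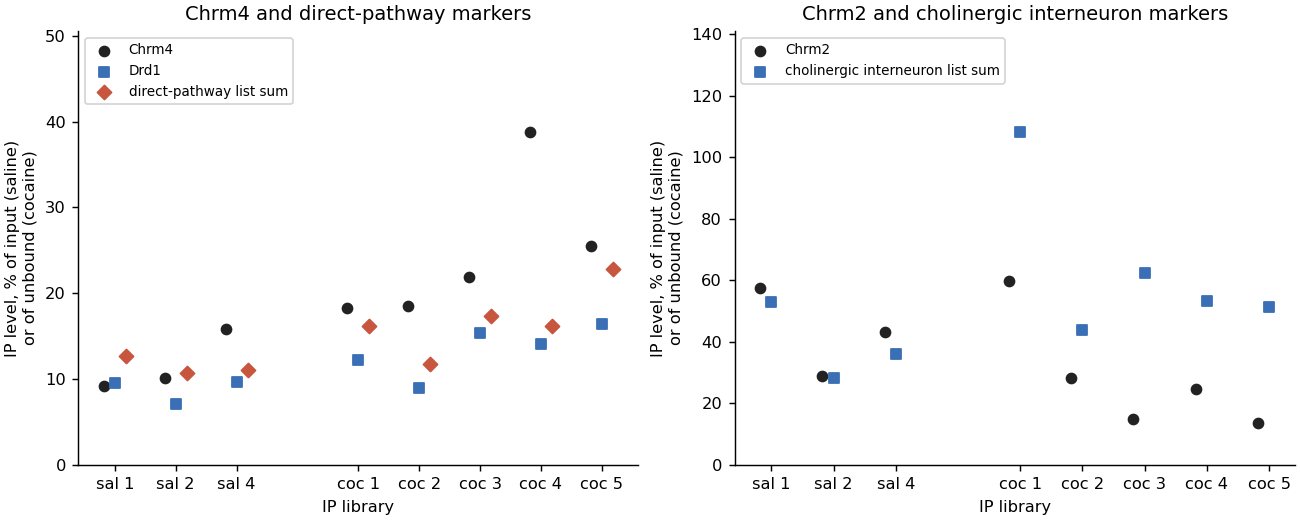
Level in each IP library as a percent of the input level (saline) or of the unbound level (cocaine), for Chrm4, Drd1 and the summed direct-pathway MSN markers (left) and for Chrm2 and the summed cholinergic interneuron markers (right). Both y axes are linear from 0, with 1 point per library and no error bars since each reference is 1 library. Chrm4 reaches 38.8% in cocaine IP 4, where the direct-pathway sum is at 16.2%, and Chrm2 peaks in number 1 of both treatments.

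Of the nicotinic subunits, Chrna4 (chr2:181018380-181043546, minus strand), an agonist-binding subunit, was higher in IP than in reference RNA. It was at 23.1, 30.5 and 28.4 CPM in saline IP 1, 2 and 4 against 16.4 CPM in input (14.6 to 18.4). In cocaine IP 1 to 5 it was at 17.3, 33.0, 33.9, 28.3 and 23.5 CPM against 17.1 CPM in unbound RNA (15.4 to 19.0). Cocaine IP 1 was the one library within the counting interval of its reference. The log2 ratio was 0.91 ± 0.23 to input and 0.79 ± 0.41 to unbound RNA.

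Chrnb2 (chr3:89746195-89764632, minus strand), the partner subunit of Chrna4, was at 15.4, 24.3 and 19.8 CPM in saline IP 1, 2 and 4 against 19.0 CPM in input (17.0 to 21.1). In cocaine IP 1 to 5 it was at 11.6, 23.5, 21.0, 18.5 and 22.7 CPM against 12.7 CPM in unbound RNA (11.3 to 14.4). The saline libraries lay on both sides of the input, whereas cocaine libraries 2 to 5 were above the unbound level. Treatment and kind of reference cannot be told apart in this contrast. The log2 ratio was 0.26 ± 0.34 to input and 0.72 ± 0.41 to unbound RNA. Exons of the longer model of Chrnb2 overlap the RNA-editing gene Adar on the other strand, so its count and its length are uncertain. Of the reads of Chrna4 and Chrnb2 together, Chrna4 took 55.7% to 59.9% in saline IP, 50.9% to 61.7% in cocaine IP, 46.4% in input (42.5 to 50.3) and 57.3% in unbound RNA. The saline IP shares were all above the interval of the input, and the lowest cocaine share was that of cocaine IP 5.

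Chrna7 (chr7:63098692-63212569, minus strand), which makes calcium-permeable channels, was at 4.99, 8.31 and 8.69 CPM in saline IP 1, 2 and 4 against 6.41 CPM in input (5.31 to 7.68). In cocaine IP 1 to 5 it was at 4.66, 9.11, 7.84, 7.34 and 7.44 CPM against 4.84 CPM in unbound RNA (3.94 to 5.88). Number 1 was below its reference in plain CPM in both treatments, and the other libraries were above. The log2 ratio was 0.34 ± 0.42 to input and 0.64 ± 0.34 to unbound RNA.

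The subunit genes typical of dopamine neurons were at or near 0. Chrna6 (chr8:27403212-27413944, minus strand) had 0 reads in all 10 libraries, which with the floor of 3 reads allows up to 0.0948 to 0.131 CPM in the IP libraries, 0.163 CPM in input and 0.144 CPM in unbound RNA. Chrnb3, its neighbour at chr8:27368711-27399730 on the plus strand, had 0, 1 and 0 reads in saline IP 1, 2 and 4 and 2, 2, 0, 0 and 14 reads in cocaine IP 1 to 5, beside 4 in input and 3 in unbound RNA. Cocaine IP 5 and the input were above the floor of 3 reads. The 6 midbrain dopamine neuron markers summed to 9.09 to 14.5 CPM in saline IP, 9.93 to 13.8 CPM in cocaine IP, 48.6 CPM in input and 62.4 CPM in unbound RNA. The largest part of the reference sums was Aldh1a1, at 26.1 CPM in input and 40.9 CPM in unbound RNA. Slc6a3 and En1 were at only 0.163 and 0.0543 CPM in input and 0.239 and 0.0479 CPM in unbound RNA. In cocaine IP 5 that sum was 13.8 CPM, and the dopamine transporter gene Slc6a3 was at 0. The part of such neurons in the Chrnb3 reads was not tested.

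**Figure D3:**
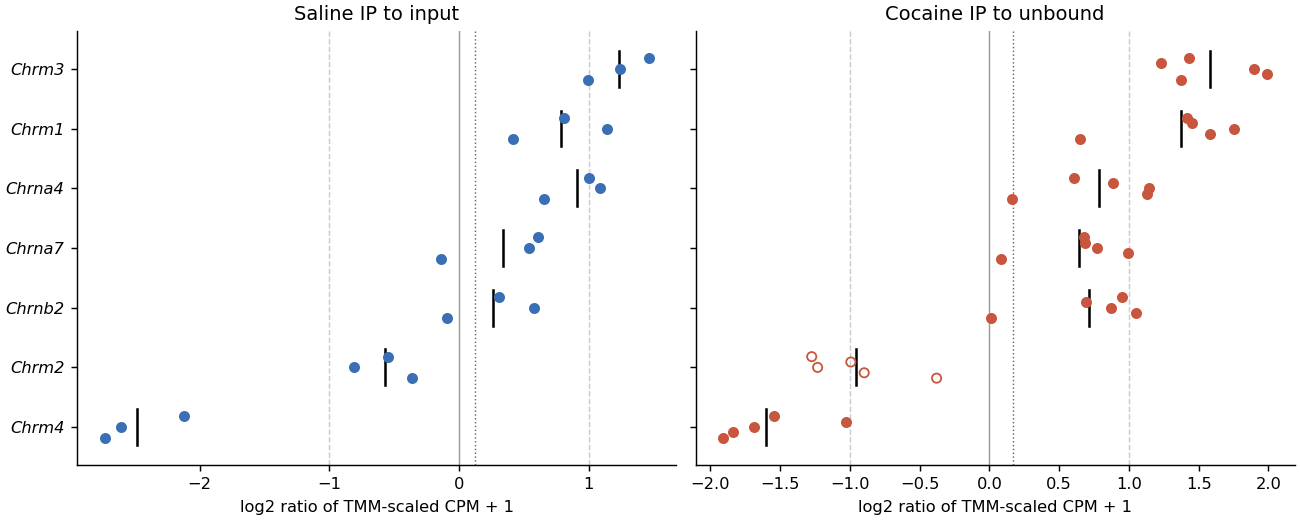
Log2 ratio of TMM-scaled CPM plus 1 (x axes) of each saline IP library to input (left) and each cocaine IP library to unbound RNA (right), with a bar at the mean. Dashed lines mark 2-fold, the dotted line the median of all genes, and open points a gene under the level filter. Chrm3 and Chrm4 stand at opposite ends in both comparisons, at mean log2 ratios of 1.23 and -2.49 against input and 1.59 and -1.60 against unbound RNA.

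A gene was called against a reference when every IP library passed 2-fold. Genes averaging 1 TMM-scaled CPM or more over the libraries compared were measured, with no test since each reference is 1 library. Against input 7 of the 10 receptor genes passed that level, 0 were called higher and 1, Chrm4, was called lower. Of all 12902 genes measured, 1.64% were called higher and 11.6% lower. Chrm3 missed the call through saline IP 1, at a log2 ratio of 0.99, while saline IP 2 and 4 were at 1.24 and 1.47. It was called with a prior of 0.1 CPM, without saline IP 1 and without saline IP 2, and Chrna4 was also called without saline IP 1. Against unbound RNA 6 of the 10 passed the level, and 1 was called higher (Chrm3) and 1 lower (Chrm4), where 3.78% and 9.74% of 12643 genes were. Chrm2 missed the level at 0.986 scaled CPM, though it averaged 1.02 in plain CPM, and its log2 ratios of -1.27 to -0.38 did not all pass 2-fold. Chrm1 was also called higher without cocaine IP 1, and neither Chrm3 nor Chrm4 was called with a prior of 5 CPM, which shrinks the ratios of low genes.

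Direction alone was shared more widely. Against input, on the scale of TMM-scaled CPM plus 1, 3 of the 7 measured receptor genes (Chrm1, Chrm3 and Chrna4) were higher in every saline IP library and 2 (Chrm2 and Chrm4) were lower, where 44.2% and 32.8% of all genes were. Chrm2, with 0.948 scaled CPM in saline IP, passed the level filter only through its 1.88 scaled CPM in input, so its place among the lower genes was set by the filter. Against unbound RNA, 5 of the 6 measured receptor genes were higher in every cocaine IP library after TMM scaling and Chrm4 was lower, where 44.3% and 29.9% of all genes were. In plain CPM 3 of the 6 were higher in every library, since Chrna7 and Chrnb2 in cocaine IP 1 were just below the unbound level.

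Cocaine against saline intake is the comparison the study was designed for, and edgeR's quasi-likelihood test was run over the 8 IP libraries. No receptor gene passed the test: of the 8 that passed the low-count filter, 0 had an adjusted p under 0.05, and 0% of all 13800 genes tested did. At an unadjusted p under 0.05 the counts were 0 of 8 receptor genes and 2.14% of all genes. For 0 of the 8 did the CPM of the groups not overlap, which held for 2.35% of all genes (1.02% higher and 1.33% lower after cocaine). The median log2 fold change of the 8 was 0.0051, against 0.0063 over all genes. Chrna6 and Chrnb3 failed the filter and were not tested.

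For the abundant receptors the intervals were narrow. Chrm1 averaged 101.5 ± 23.9 CPM (SD, n = 3) after saline and 101.2 ± 24.5 CPM (n = 5) after cocaine, with a log2 fold change of 0.00545 (SE 0.22, 95% interval -0.48 to 0.49, adjusted p = 0.9998 by edgeR with Benjamini-Hochberg adjustment). Chrm3 averaged 8.97 ± 1.43 and 9.30 ± 2.30 CPM, a log2 fold change of 0.06 (-0.41 to 0.54). Chrna4 averaged 27.3 ± 3.82 and 27.2 ± 6.91 CPM, with an interval of -0.46 to 0.47. Changes beyond 1.41-fold in Chrm1 or 1.39-fold in Chrna4 toward higher levels were outside these intervals. For Chrna7 (7.33 ± 2.03 and 7.28 ± 1.63 CPM) the interval was -0.54 to 0.54, and for Chrnb2 (19.8 ± 4.43 and 19.4 ± 4.80 CPM) it was -0.52 to 0.48. In all 5 the interval stayed within 2-fold either way in this fit, which has treatment as its only term.

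The rarer muscarinic receptors were measured less closely. Chrm4 averaged 2.49 ± 0.763 CPM after saline and 3.24 ± 1.12 CPM after cocaine, with a log2 fold change of 0.38 (SE 0.30, 95% interval -0.28 to 1.05) and the smallest unadjusted p of the 8 (0.231, edgeR; adjusted p = 0.9998). Chrm5 had a log2 fold change of 0.77 (SE 0.66, -0.67 to 2.20) and Chrm2 one of -0.33 (SE 0.49, -1.39 to 0.74). The interval of Chrm4 includes a rise of just over 2-fold, and those of Chrm5 and Chrm2 include larger changes. With a library left out the log2 fold change ranged from -0.81 to -0.097 for Chrm2 and from 0.16 to 0.66 for Chrm4, with the ends reached without cocaine IP 1 and saline IP 1 for Chrm2 and without cocaine IP 4 and saline IP 4 for Chrm4.

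**Figure D4:**
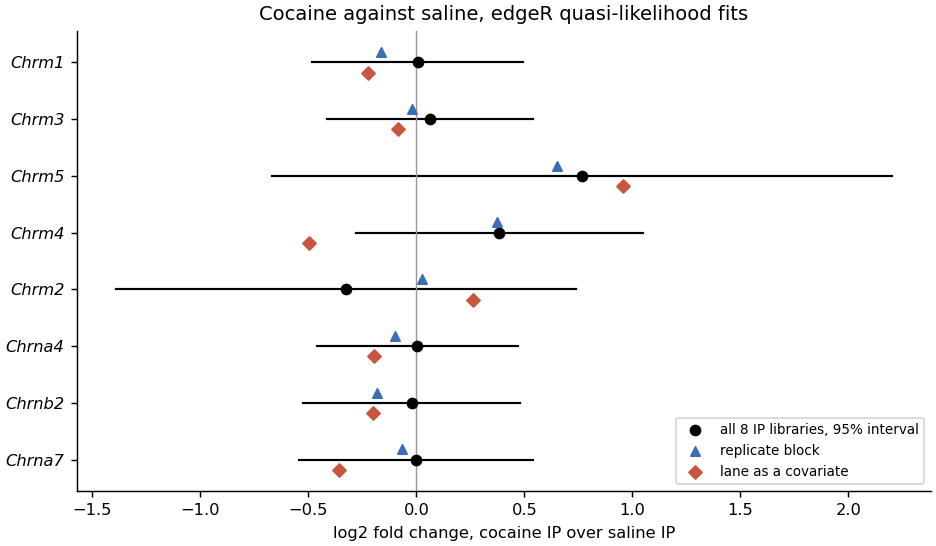
Log2 fold change of cocaine IP over saline IP (x axis) for the 8 receptor genes tested, from edgeR. Circles with 95% intervals are the fit of all 8 libraries, triangles the fit paired by library number, and diamonds the fit with sequencing lane as a covariate. Every interval includes 0, and Chrm4 is at 0.38 in the first fit and -0.50 with lane as a covariate.

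The sequencing lane in the labels was not balanced over the treatments. Saline IP 1 and 2 were run in lane 7, saline IP 4 and cocaine IP 1 and 2 in lane 6, and cocaine IP 3, 4 and 5 in lane 4. Only lane 6 held both treatments, and a fit with lane as a covariate takes its treatment estimate from that lane. There Chrm4 was lower after cocaine, with a log2 fold change of -0.49 in lane 6 alone and -0.50 with lane as a covariate, against 0.38 over all libraries. Chrm2 was at 0.27 and 0.26 in these fits against -0.33, and Chrm1 at -0.22 in both. The intervals were wider with lane as a covariate, at -1.10 to 0.65 for Chrm1, -1.08 to 0.69 for Chrna4, -1.33 to 0.62 for Chrna7, -1.15 to 0.75 for Chrnb2 and -0.93 to 0.76 for Chrm3, and all of these but the last reach past a 2-fold fall. None of these values passed the threshold (edgeR, adjusted p = 0.9998 or more), and in lane 6 the lone saline library is assumed to vary like the cocaine libraries.

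Among the cocaine libraries, lane 4 set against lane 6 gave a log2 difference of -1.30 for Chrm2 (SE 0.52, adjusted p = 0.862 by edgeR's quasi-likelihood test) and of 0.64 for Chrm4 (SE 0.32, adjusted p = 0.862). Chrm4 was higher in each of the 3 lane 4 libraries than in both lane 6 libraries, and Chrm2 was lower in each. With so few libraries a gene can separate the lanes in this way by chance. The share of all genes that did so was not computed. In this comparison 0% of 13746 genes were called, and 744 had an unadjusted p under 0.05. Of the receptor genes, only Chrm2 was among these 744. Without cocaine IP 2, which left cocaine IP 1 alone in lane 6, Chrm1 differed by 0.90 and Chrnb2 by 0.88. With all cocaine libraries they differed by 0.37 and 0.24, and with cocaine IP 1 left out by -0.02 and -0.21. Without cocaine IP 1, the library highest in Chrm2, its difference was -0.69, and without cocaine IP 4, the library highest in Chrm4, that gene differed by 0.36.

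The saline and cocaine libraries share the numbers 1, 2 and 4. Within these pairs the difference in log2(CPM + 1) of Chrm4 was 0.21, 0.13 and 0.49, so that it was higher after cocaine in 3 of 3, as were 12.9% of all genes. Chrnb2 was lower after cocaine in 3 of 3 pairs, by differences of -0.39, -0.05 and -0.10, as were 14.4% of all genes. Chrm1 was lower in 2 of 3. Neither gene was called in the fit paired by number (edgeR, lowest adjusted p of any receptor gene = 0.8045, for Chrm1).

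The libraries of number 1 stood apart for several receptors. Chrm1, Chrna4, Chrnb2, Chrna7 and Chrm4 were lowest there in both treatments. The first 4 were at 77.7%, 84.5%, 77.8% and 68.1% of the group mean in saline IP 1 and at 60.3%, 63.6%, 59.5% and 64.0% in cocaine IP 1. Chrm4 was at 78.6% and 74.3%, with cocaine IP 2 close by at 75.3%. Chrm2 was highest there, at 133.1% and 211.7%. The shares of all genes lowest or highest in number 1 of both treatments were not computed. Over 9618 genes, deviations of the number 1 libraries from their group means correlated at 0.709. Shifts in number 1 were thus not particular to receptors. The summed indirect-pathway markers were lowest in the same libraries (80.4% and 66.9% of the group mean) and the summed cholinergic interneuron markers were highest (135.5% and 169.6%). Single markers did not all follow. Drd2 and Sp9 were not lowest in number 1 of either treatment, and Slc18a3 was not highest. Adora2a was lowest there after saline alone, with 672.5 CPM in cocaine IP 1 and 618 CPM in cocaine IP 5. Of the indirect-pathway markers, Penk and Gpr6 were lowest there in both treatments, and Penk was the largest part of the sum. Slc18a3 was at 1.76 CPM in saline IP 1 and 2.59 CPM in saline IP 2, and at 3.17 CPM in cocaine IP 1 and 3.86 CPM in cocaine IP 3. The summed oligodendrocyte markers were also highest in number 1 of both treatments. They were at 364.5 CPM in saline IP 1 against 172 and 270 CPM in the other saline libraries. In cocaine IP 1 they were at 336 CPM against 172 to 238.5 CPM in the other cocaine libraries. The sums of midbrain dopamine neuron and ependymal markers were highest there too, but after cocaine by little. The dopamine sum was 13.84 CPM in cocaine IP 1 and 13.75 CPM in cocaine IP 5. The ependymal sum was 4.88 CPM in cocaine IP 1 and 4.53 CPM in cocaine IP 4. Slc18a2 of the dopamine list was lowest in number 1, at 5.76 CPM after saline and 4.94 CPM after cocaine. The part of these shifts in the receptor levels was not tested. Without both number 1 libraries, a setting chosen after their levels were seen, the log2 fold change of Chrm1 was -0.03 (SE 0.14) and 0 receptor genes were called.

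**Figure D5:**
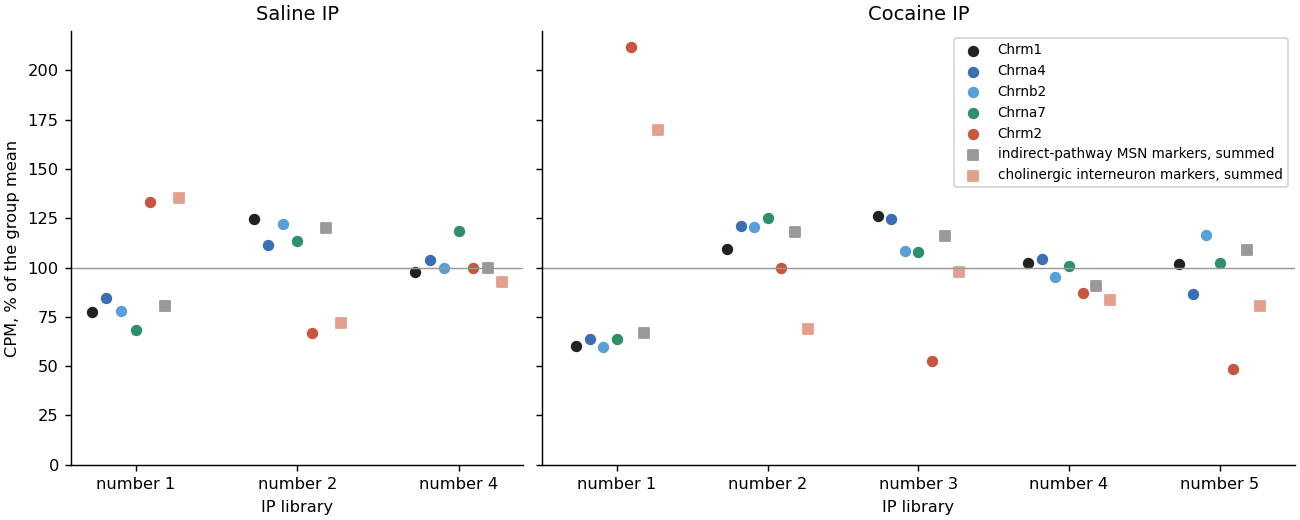
CPM as a percent of the group mean (y axis, linear) for 5 receptor genes (circles) and for the summed markers of indirect-pathway MSNs and cholinergic interneurons (squares), by library number in saline IP (left) and cocaine IP (right); the line marks 100%. In number 1 of both treatments 4 receptor genes and the indirect-pathway sum lie below the line, and Chrm2 and the interneuron sum lie above it.

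The genes whose levels ran most like each receptor were sought over the 10 libraries by the Pearson correlation of log2(TMM-scaled CPM + 1), among 9970 genes that averaged 5 CPM or more. Most like Chrm1 were Clptm1 (0.994), Clptm1l (0.992) and Adgrb3 (0.990). For Chrm4 they were Slitrk1 (0.972), F3 (0.971) and Slc7a11 (0.970), and for Chrm3 Dhps (0.984), Wdr70 (0.969) and Akt2 (0.967). For Chrna4 they were Tubgcp6 (0.981), Fam171b (0.973) and Shisa9 (0.959), for Chrna7 Cntnap1 (0.968), Nfe2l1 (0.964) and Stim2 (0.962), and for Chrnb2 Kdelr1 (0.980), Syngr3 (0.980) and Txndc15 (0.979). These values describe 10 libraries that fall into IP and reference RNA and share lanes and numbers, and the genes were picked as the highest of many.

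Other genes of the pathway were described as lists. Of 11 further nicotinic subunit genes, 1 (Chrnb1, a subunit of the muscle receptor) could be tested for cocaine against saline, with a log2 fold change of 0.19 and no call. Chrnd and Chrng were at 0 in every library. The 11 genes summed to 1.396 to 2.30 CPM in saline IP, 1.18 to 2.30 CPM in cocaine IP, 3.91 CPM in input and 4.60 CPM in unbound RNA.

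Of 7 genes of acetylcholine synthesis, transport and breakdown, 6 were tested after cocaine, with 0 called and a median log2 fold change of -0.15. Their median log2 ratio was -0.53 to input and -0.25 to unbound RNA. Bche, which encodes butyrylcholinesterase, was called lower against both references, at -2.23 ± 0.53 and -2.33 ± 0.28. With IP means of 0.862 and 0.675 CPM it was measured only through its level in the references. The share of all genes called lower was 11.6% and 9.74%. Slc5a7, the choline transporter of cholinergic neurons, was at -1.23 ± 0.38 against input, and its log2 fold change after cocaine was 0.22. For Prima1, the membrane anchor of acetylcholinesterase, that was -0.06.

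Of 9 chaperones and Ly6-type partners of nicotinic receptors, 8 were tested, with 0 called after cocaine and a median log2 fold change of 0.07. Lypd6 and Lypd6b, whose products can modulate nicotinic receptors, were called lower against both references. These were 2 of 8 measured, where 11.6% and 9.74% of all genes were called lower, and Lypd6, under 1 CPM in IP, was measured only through the references. Lypd6 was at -3.41 ± 0.24 to input and -3.66 ± 0.26 to unbound RNA, and Lypd6b at -2.06 ± 0.26 and -1.74 ± 0.29. The median of the list was -0.15 and 0.01. Lynx1, a Ly6-type protein that dampens nicotinic currents, was the most abundant of the list at 437 ± 106 CPM in saline IP and 416 ± 65.1 CPM in cocaine IP.

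All 20 signal partners of muscarinic receptors were tested, with 0 called after cocaine and a median log2 fold change of 0.05. At an unadjusted p under 0.05 there was 1, Gnai1, the gene of a Gi alpha subunit, at 0.38 (SE 0.14, edgeR adjusted p = 0.9998). Called lower against input were Gnai1 (-1.45 ± 0.07), Gnai2 (-1.16 ± 0.14) and the potassium channel genes Kcnj3 (-1.70 ± 0.40) and Kcnj6 (-2.34 ± 0.36), whose channels Gi/o-coupled receptors open. Against unbound RNA these were Plcb4 (-2.28 ± 0.62), a phospholipase C gene, Kcnj3 (-2.31 ± 0.20) and Kcnj6 (-2.49 ± 0.26). These 4 and 3 of 20 compare with 11.6% and 9.74% of all genes, and Kcnj6, under 1 CPM in IP, was measured only through the references. None of the 20 was called higher, where 1.64% and 3.78% of all genes were, and their median log2 ratio was -0.03 to input and -0.08 to unbound RNA.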

How the data were processed

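Ribosome-bound, input and unbound striatal RNA was sequenced, and the authors deposited raw read counts per gene symbol for each library. STAR 2.0.0e, HTSeq and the build mm10 are named in the submitters' processing notes. HTSeq's version, gene annotation and strand setting were not given in the sources used here, so reads of overlapping genes are uncertain. Groups and numbers come from the titles, lanes from the descriptions.

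Reads in no annotated feature, 12.9% to 14.4% of gene, no-feature and ambiguous reads in IP, 25.5% in input and 27.4% in unbound RNA, stayed out of library sizes and tests. CPM is a count scaled to all gene reads of its library. Intervals and the floor of 3 reads cover counting error only, since the reads carry no molecular identifiers.

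Cocaine against saline was tested two-sided over 8 IP libraries in R 4.3.3 by edgeR 4.0.16 (quasi-likelihood test, TMM scaling, filterByExpr, treatment as the only term, Benjamini-Hochberg adjustment over all genes tested), and lane 4 against lane 6 likewise. The steps were tested on simulated counts. Ratios to a reference are log2 ratios of TMM-scaled CPM plus 1, with no test, for genes averaging at least 1 scaled CPM, a level that a gene low in IP can reach through the reference alone. DESeq2 1.42.0, other scaling, filters and priors, and fits without single libraries were alternatives. Library numbers were taken to pair the samples, although no label explains the numbers. Deviations of libraries with the same number from their group means correlated at 0.709, 0.628 and 0.321 over 9618 genes. Among the cocaine libraries, each saline library correlated best with that of its own number. The reverse was not checked. Positions and exon lengths are from GENCODE on GRCm38, the assembly of mm10, and upstream sequences from RefSeq on GRCm38.p6, where 7 of the 10 members had an entry. Every member is named. Members of pathway lists are named when called in a comparison (at most 4), otherwise the most abundant. Members, lists and this rule were chosen with earlier results of these data known.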

Additional observations from a re-analysis of the deposited data

Results flagged for a closer look

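Chrnb3, a nicotinic subunit gene, was at 0.609 CPM (14 reads) in cocaine IP 5, while the other 4 cocaine IP libraries had 0 to 2 reads. The gap to the nearest library took 0.882 of the group's range, above Dixon's critical value of 0.71 for 5 libraries. It was the only such library among 9 receptor genes examined. Chance alone flags about 1 in 20 groups for each gene, and reads this few take only a handful of values.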

How the results depend on the processing

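Under every alternative run, 0 genes were called for cocaine against saline and 0 receptor genes had an unadjusted p under 0.05. The counts over all genes at an unadjusted p under 0.05 were 295 with edgeR as reported, 363 with DESeq2, 304 with RLE size factors and 186 to 598 with a library left out. With the replicate block, the fit paired by number, 913 genes had an unadjusted p under 0.05 and the smallest adjusted p was 0.0934, against 141 genes in the same 6 libraries unpaired. The pairing changed no call.

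Of the 8 receptor genes tested, 7 changed sign in at least 1 setting, none with a call. The log2 fold change of Chrna4 was -0.00020 with RLE size factors and -0.00034 with DESeq2. Without a low-count filter Chrm1 was at -0.0023 and Chrna4 at -0.0033, and among genes averaging 5 CPM or more they were at -0.011 and -0.013. With the replicate block Chrm1 was at -0.16, Chrm2 at 0.024, Chrm3 at -0.021 and Chrna4 at -0.098, and in the same 6 libraries unpaired at -0.14, 0.065, -0.0015 and -0.059. With lane as a covariate Chrm1 was at -0.22, Chrm2 at 0.26, Chrm3 at -0.085, Chrm4 at -0.50 and Chrna4 at -0.20, and in lane 6 alone at -0.22, 0.27, -0.079, -0.49 and -0.19. Without the lane 4 libraries Chrm1 was at -0.24, Chrm2 at 0.29, Chrm4 at -0.042 and Chrna4 at -0.12. Without both number 1 libraries Chrm1 was at -0.034, Chrm3 at -0.013 and Chrna4 at -0.00012. With each library left out in turn, Chrm1 ranged from -0.18 to 0.20, Chrm3 from -0.073 to 0.19, Chrna4 from -0.13 to 0.12, Chrna7 from -0.24 to 0.14 and Chrnb2 from -0.20 to 0.16, while Chrm2 (-0.81 to -0.097) and Chrm4 (0.16 to 0.66) kept their sign. The cause was not tested. Chrm5 was positive under all 12 alternatives that could test it.

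Against input, 211 genes were called higher: 70 with library size alone, 125 with a prior of 5 CPM and 325 to 377 with a library left out, when fewer libraries have to pass. Called lower were 1495 genes, 781 with a prior of 5 CPM and 660 among genes averaging 5 CPM or more. Receptor genes called higher numbered 1 with a prior of 0.1 CPM and 0 to 2 with a library left out, and Chrm4 was called lower throughout. Against unbound RNA, 478 genes were called higher, 247 with library size alone and 294 with a prior of 5 CPM, and 1231 lower, 756 with a prior of 5 CPM, 556 among genes averaging 5 CPM or more and 1891 with no filter. Receptor genes called there fell to 0 higher and 0 lower with a prior of 5 CPM and 0 lower among genes averaging 5 CPM or more, which Chrm4 missed, and 1 to 2 were higher with a library left out. The mean log2 ratio of Chrm4 ranged from -2.85 to -1.65 against input and from -1.85 to -1.02 against unbound RNA. Between lanes 4 and 6, 0 to 407 genes were called with a library left out, the 407 without cocaine IP 2. Depth limits Chrm2, Chrm5 and Chrnb3, with at most 48, 22 and 14 reads per IP library.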
